A study of Tigriopus californicus with 9 samples.

Results

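Developmental transcription factors and nuclear receptors were taken from the predicted protein names of a copepod transcriptome: 129 of 13758 features carried a name of a homeobox, forkhead, Sox, nuclear receptor, T-box, GATA, POU, paired box, Krueppel, basic helix-loop-helix or kayak protein, or a name built on ecdysone or hairy. Another feature, a nuclear receptor co-regulator, met the pattern and was excluded by the rule. Of the 129 members, 120 are DNA-binding factors or receptors of these families by name, and 9 match a word of the rule but are another kind of protein, such as ecdysone 20-monooxygenase-like or polyhomeotic-like protein 2. The members carry 106 distinct names. Contigs that share a name may be pieces of 1 gene or related genes, and the counting rule for reads that fit several contigs is unknown here.

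Transcription factors of these families bind DNA and set which genes a cell expresses, and many of them lay out the arthropod body plan, the limbs, the eyes and the nervous system. Nuclear receptors are transcription factors that many hormones switch on directly. In insects and crustaceans the moulting hormone, an ecdysteroid, binds the ecdysone receptor in a dimer with the retinoid X receptor, and this dimer starts a cascade of further nuclear receptors at each moult.

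Polyadenylated RNA of whole Tigriopus californicus, a copepod of coastal splash pools, was sequenced in 9 libraries, each from 400 to 500 animals pooled over all developmental stages and held at 20 °C for 2 h. The parental groups were San Diego animals (SD, 3 libraries) and Santa Cruz animals (SCN, 2 libraries), kept as beaker populations. The hybrid groups came from SD mothers and SCN fathers (SDf x SCNm, 2 libraries) and from SCN mothers and SD fathers (SCNf x SDm, 2 libraries). Virgin females were used for these crosses, and matings among the first and then the second hybrid generation gave F3 animals. Groups follow the sample titles; in the 2 SCNf x SDm libraries another label gives the reverse direction of mating. Nothing in the labels says that the replicates came from separate cultures, so the spread behind each p-value is that of these samples alone and may be technical. In whole animals fewer cells of a type and less RNA per cell cannot be told apart.

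Depth differed widely. Whole reads recovered from the deposited RPKM values (reads per kilobase of contig, scaled to the size of the library) numbered, in megareads, 0.962 to 16.9 in the SD libraries, 1.59 and 3.90 in those of SCN and 4.91 to 15.0 in the hybrid ones. The 2 libraries of sequencing run 3, SD replicate 3 and SCN replicate 2, stood apart: the median member had 5 reads in each, and 79 and 78 members had under 10, against 1 to 24 members in the other libraries. SCN replicate 2 was the lowest of the 9 libraries in 82 of the 129 members (63.6%), compared with 44.3% of all features. SD replicate 1 and SCN replicate 1 shared run 1, SD replicate 2 was run 2, SDf x SCNm replicate 1 was run 4, and the other 3 hybrid libraries were run 5. No run held both parents and hybrids, so hybrid status and sequencing run cannot be told apart.

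The members were mostly rare transcripts. Their median level, as the mean RPKM over the 9 libraries, was 10.7, compared with 26.2 over all features, and 95 of 129 lay below the median of all features. Only 13 members reached a mean RPKM of 50 and 3 reached 100. The most abundant was nuclear receptor 1 (Contig1838), with a mean of 116 RPKM and libraries from 80.6 in SCN replicate 2 to 159 in SCN replicate 1. Next were extradenticle (Contig5335, 104 RPKM), the partner with which Hox proteins bind DNA in Drosophila, and Krueppel-like factor 11 (Contig8cap, 101 RPKM), a zinc finger factor of the GC-box binding family.

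The other abundant members were 2 contigs named forkhead box protein K2 (Contig3623, 97.1, and Contig1766, 77.8 RPKM), orthopedia (Contig1618cap, 82.2 RPKM), which patterns neurons of the forebrain in vertebrates, and kayak (Contig3278, 76.9 RPKM), the fly homologue of Fos. The retinoid X receptor (Contig1582cap, 65.7 RPKM), cut-like 1 (Contig12188, 62.3 RPKM) and a forkhead subgroup contig (Contig438cap, 61.5 RPKM) completed the 10 highest. Extradenticle was also among the steadiest members, with its highest library 1.71 times its lowest, whereas the median member spanned 4.08-fold and the median feature 3.58-fold. Replicates within a group are part of that span.

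Families differed in level. Forkhead contigs had a median of 20.0 RPKM over 8 members and nuclear receptors 19.5 over 20. The 14 Krueppel contigs had a median of 14.5 and the 12 Sox contigs, HMG-box factors of cell fate, 13.6. Homeobox and homeotic contigs, the largest family with 46 members, had a median of 10.2 RPKM but ranged from 3.59 to 104. GATA factors (8 members, median 9.29), paired box factors (5 members, 7.33) and T-box factors (5 members, 5.00) were the scarcest. All these levels hold a constant that the deposited values contain, equal to 1.12 to 18.4 reads per contig, depending on the library. It lifts short and scarce contigs most, so low levels rest partly on it.

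**Figure D1:**
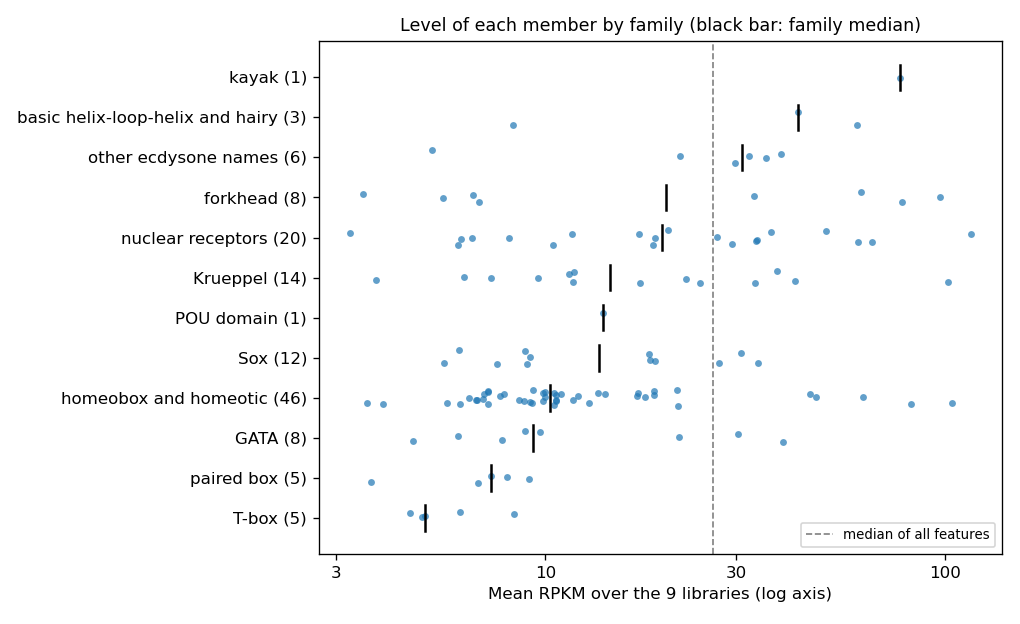
Each point is 1 member, placed by its mean RPKM over the 9 libraries on a log axis, in rows by family with the number of members in brackets; black bars are family medians and the dashed line is the median of all features, 26.2 RPKM. Most points lie left of the dashed line, and 3 members, nuclear receptor 1, extradenticle and Krueppel-like factor 11, lie beyond 100 RPKM.

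The moulting cascade was read first at its receptors. Ecdysone receptor contig Contig2346 had 32.9, 22.8 and 34.1 RPKM in the 3 SD libraries, 53.9 and 19.0 in SCN, 38.0 and 37.7 in SDf x SCNm and 31.7 and 32.9 in SCNf x SDm. The groups overlapped, and both crosses kept to a narrow band. The other ecdysone receptor contig, Contig7920, had 31.7, 37.3 and 39.9 RPKM in SD, 34.5 and 22.6 in SCN, 13.3 and 34.7 in SDf x SCNm and 36.9 and 11.9 in SCNf x SDm. In each cross 1 of its libraries was low and the other near the parents.

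Its dimer partner, the retinoid X receptor, had 79.0, 47.3 and 90.8 RPKM in SD, 49.8 and 104 in SCN, 64.4 and 53.2 in SDf x SCNm and 52.9 and 49.8 in SCNf x SDm. Its highest values were those of the run 3 libraries. Nuclear hormone receptor HR96 (Contig2985), a receptor tied to xenobiotics and lipids in Drosophila, was also highest there, at 90.8 in SD replicate 3 and 61.1 RPKM in SCN replicate 2 against 34.7 to 50.9 in the other libraries.

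Among the receptors downstream, 3 contigs, E75, ftz- and NR5A2, ranged more widely between libraries. Ecdysone inducible protein 75 (E75, Contig1338cap), an early gene of the cascade in Drosophila, had 47.6, 60.5 and 29.5 RPKM in SD, 45.1 and 4.53 in SCN, 19.6 and 53.5 in SDf x SCNm and 70.0 and 19.3 in SCNf x SDm. Its highest library was 15.5 times its lowest, and SCN replicate 1 was 9.95 times SCN replicate 2. A contig named nuclear hormone receptor ftz- (Contig185cap; the deposited name ends there) had 27.1, 10.2 and 24.0 RPKM in SD, 49.0 and 4.54 in SCN, 14.8 and 43.3 in SDf x SCNm and 56.9 and 11.4 in SCNf x SDm. Nuclear receptor subfamily 5 group A member 2 (NR5A2, Contig18cap), of the family that holds the fly competence factor FTZ-F1, had 23.1, 18.2 and 14.5 RPKM in SD, 29.1 and 3.89 in SCN, 8.17 and 29.5 in SDf x SCNm and 34.2 and 6.50 in SCNf x SDm. All 3 genes were high in SCN replicate 1, SDf x SCNm replicate 2 and SCNf x SDm replicate 1 and low in the other library of each of these groups.

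FTZ-F1 beta (Contig2656) was high in the same library of each of these pairs over a smaller range, with 22.4, 29.5 and 13.2 RPKM in SD, 20.1 and 7.41 in SCN, 11.0 and 17.9 in SDf x SCNm and 23.4 and 9.07 in SCNf x SDm. HR3 (Contig12403), a receptor induced by ecdysone in Drosophila, ranged from 5.67 RPKM in SCNf x SDm replicate 2 to 19.4 in SD replicate 3. Ecdysone-induced protein isoform n (Contig3518) ranged from 10.1 RPKM in SCN replicate 2 to 30.3 in SCNf x SDm replicate 1. Krueppel homologous protein 1 (Contig16150), which carries the juvenile hormone signal in insects, had 15.6, 19.3 and 11.4 RPKM in SD, 28.7 and 11.6 in SCN, 21.3 and 33.0 in SDf x SCNm and 35.4 and 25.8 in SCNf x SDm. Ecdysone 20-monooxygenase-like (Contig20378), named for the enzyme that makes the active hormone, stayed between 26.0 and 35.3 RPKM in 8 libraries and was 15.0 in SCN replicate 2.

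**Figure D2:**
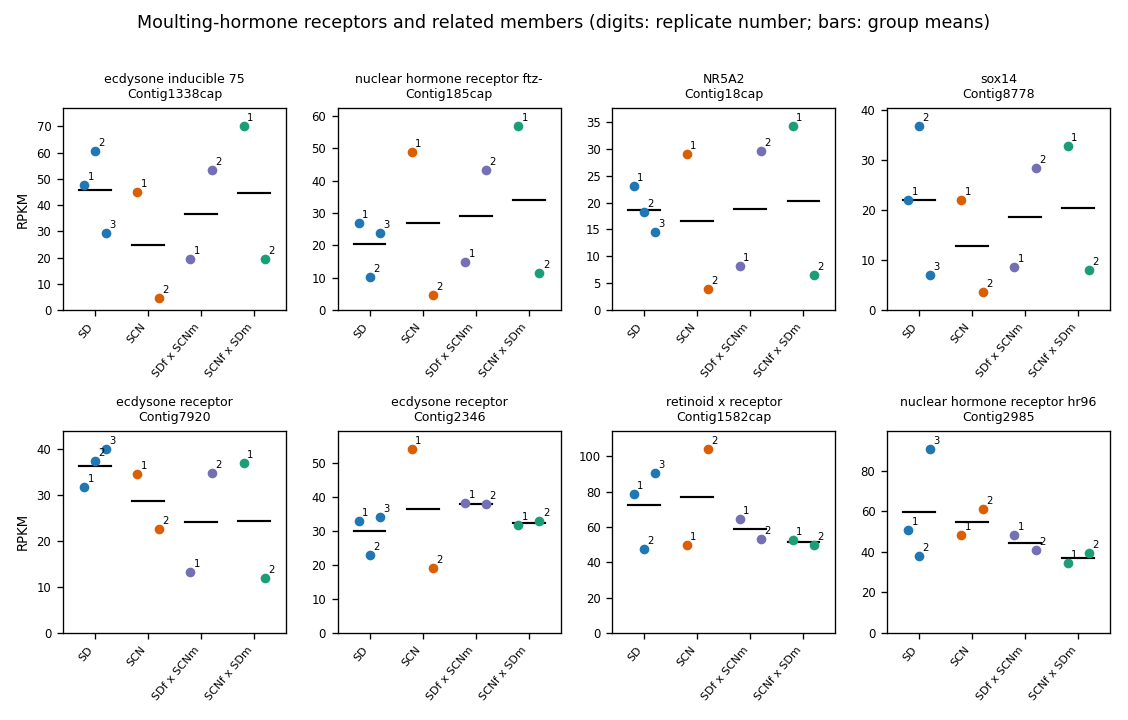
RPKM (linear axis from 0) of 8 members in the 4 groups; each point is a library with its replicate number, and bars are group means. E75, ftz-, NR5A2 and sox14 (Contig8778) part the 2 replicates of SCN and of each cross, whereas ecdysone receptor Contig2346 holds between 31.7 and 38.0 RPKM in the 4 hybrid libraries.

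The 2 crosses shared a pattern of replicate differences among the members. It was noticed after the values had been seen, and it is given as a description with no test. The ratio of SDf x SCNm replicate 2 to replicate 1 was at least 1.5 in 37 of 129 members, compared with 18.0% of all features, and the ratio of SCNf x SDm replicate 1 to replicate 2 was at least 1.5 in 59, compared with 19.6%. Both ratios were at least 1.5 in 27 members (20.9%), compared with 10.4% of all features. Both were at least 2 in 13 members (10.1%), compared with 3.4%. Both were above 1 in 80 members (62.0%), compared with 39.7%. No member had both ratios at or under 1/1.5, which held for 2.73% of all features.

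Among the 27 were 8 of the 20 contigs of the nuclear receptor family, 9 of 46 homeobox, 4 of 14 Krueppel, 4 of 12 Sox and 1 of 8 forkhead contigs, with E75 from the ecdysone names. NR5A2 led with ratios of 3.61 and 5.26, followed by ftz- with 2.93 and 5.00. A sox14 contig (Contig8778), named for a factor that ecdysone induces in Drosophila, had 8.56 and 28.5 RPKM in SDf x SCNm and 32.9 and 8.11 in SCNf x SDm, ratios of 3.33 and 4.05. E75 had 2.72 and 3.63, zinc finger homeobox protein 3-like (Contig13098) 3.59 and 3.12, and ecdysone receptor Contig7920 2.61 and 3.11. Retinoid X receptor (0.83 and 1.06), ecdysone receptor Contig2346 (0.99 and 0.97) and HR96 (0.84 and 0.88) had ratios near or under 1.

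Stage and sex markers were set beside this pattern. The yolk list was made from parts of names, so not all its contigs are yolk proteins. It includes a vitellogenin receptor (Contig1515cap) and a vitelline membrane outer layer protein 1-like contig (Contig12543). The summed RPKM of its 9 contigs was 29644 and 34793 in SDf x SCNm replicates 1 and 2 and 39165 and 26388 in SCNf x SDm replicates 1 and 2. As a sum this is the same order of libraries as E75 over a smaller range, but single yolk contigs differed. Contig1760cap kept the order, with 4611 and 11498 RPKM, and 13737 and 5550. Contig1764cap had the reverse in both crosses, with 10806 and 7147, and 7403 and 7858. Over 87 cuticle and chitin contigs it was 29530 and 39449, and 53182 and 48571. In SCN the yolk sum was 35917 in replicate 1 and 4024 in replicate 2, and the cuticle sum 22784 and 10890. In SD the yolk sum ranged from 11858 to 34420 and the cuticle sum from 10825 to 26591. With SCN replicate 2 at 0 reads in 12 of the 87 cuticle contigs and in 0 of the 9 yolk contigs, the part that stage, sex or depth had in the member values was not tested. SCN replicate 1 was at least 1.5 times SCN replicate 2 in 99 members (76.7%), compared with 50.9% of all features.

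**Figure D3:**
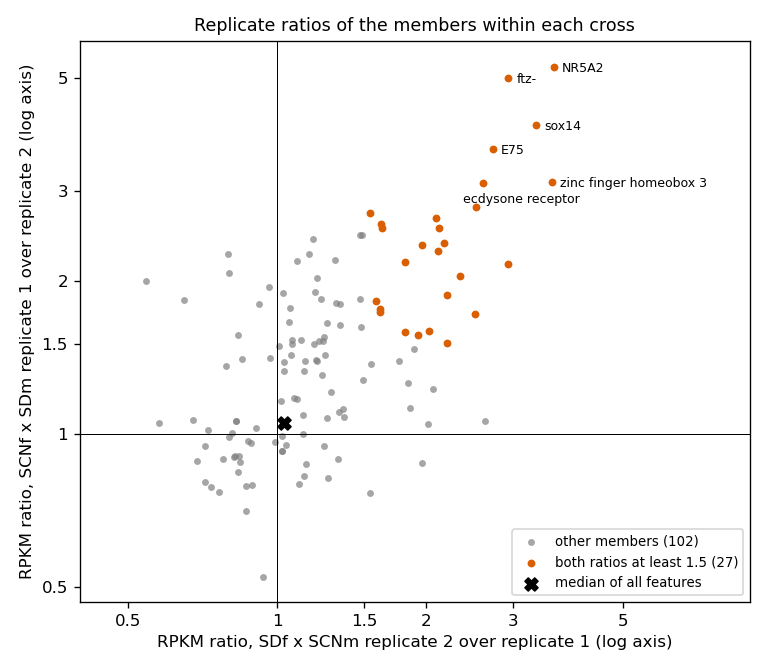
Each point is 1 member, placed by the RPKM ratio of SDf x SCNm replicate 2 to 1 and of SCNf x SDm replicate 1 to 2, both on log axes; orange marks the 27 members with both ratios at least 1.5, and the cross is the median of all features at 1.03 and 1.05. Members extend to the upper right, with NR5A2 at 3.61 and 5.26 farthest, and none lies with both ratios at or under 1/1.5.

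The first comparison asked whether the parental populations differ. By limma, which fits a linear model to every feature and shares the estimate of spread among them, on log2(RPKM + 1), with p-values adjusted over all features, 1 of 129 members passed an adjusted p of 0.05, compared with 0.429% of all features (59 of 13758). It was short stature homeobox (Contig19699), whose human counterpart SHOX acts in bone growth of the limbs. It had 19.0, 26.2 and 24.3 RPKM in SD and 4.91 and 2.03 in SCN, so that every SD library lay above both SCN libraries. The 4 hybrid libraries lay in between, at 13.0 and 9.95 in SDf x SCNm and 7.14 and 9.27 in SCNf x SDm. SD was 5.67-fold above SCN (log2 2.50, SE 0.40, limma adjusted p = 0.0348) on this scale, which understates the differences of low features, and the log2 difference was 1.76 within run 1 and 3.06 within run 3.

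These values rest on few reads in SCN. The contig held 201, 89 and 15 reads in SD and 9 and 1 in SCN, beside 38 to 85 in the hybrids. It passed in 7 of 19 alternative fits, in which log2 ranged from 1.75 to 3.10 and the adjusted p from 0.00967 to 0.192. Without SCN replicate 2 it had log2 2.02 (limma adjusted p = 0.0625), and without both run 3 libraries 1.98 (0.0683). Leaving out any 1 of the SD or hybrid libraries also ended the call, with an adjusted p of 0.0777 to 0.135 in limma.

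The members next in order did not pass. Protein krueppel-like (Contig2362), named for a fly gap gene, had 22.4, 36.8 and 22.8 RPKM in SD and 7.82 and 2.46 in SCN (log2 2.32, SE 0.58, limma adjusted p = 0.116). The forkhead subgroup contig (Contig438cap) had 85.5, 93.5 and 71.7 in SD and 42.8 and 20.1 in SCN (log2 1.47, SE 0.39, limma adjusted p = 0.125). In both, the SD libraries lay above the SCN libraries without overlap. The hybrid libraries, at 7.55 to 26.9 RPKM for krueppel-like and 51.7 to 73.5 for the forkhead contig, reached into the SD range. GATA zinc finger domain-containing protein 1-like (Contig1453) had 55.3, 50.1 and 65.2 RPKM in SD and 21.5 and 29.3 in SCN (log2 1.14, SE 0.32, limma adjusted p = 0.144).

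The rest of the 10 smallest p-values belonged to a Krueppel C2H2 zinc finger (Contig12537, log2 1.13), sox-5 (Contig15996, 1.26), LIM homeobox lhx9-like (Contig11291, 1.39), the ecdysoneless homologue (Contig15599, -1.52), Krueppel-like factor 5 (Contig1560, 1.06) and sox14 (Contig11008, 1.39), with limma adjusted p from 0.149 to 0.180. Ecdysoneless, a protein needed for ecdysteroid production in Drosophila, ran the other way, with 14.0, 7.27 and 27.3 RPKM in SD, 36.7 and 49.6 in SCN, and hybrids from 29.7 to 48.4. It was the 1 member of 21 with an unadjusted p under 0.05 that was lower in SD. Those 21 are 16.3% of the members, compared with 17.5% of all features. At any p, 62.5% of all features were higher in SD.

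E75 had the third largest positive difference (log2 1.496, SE 0.853, limma adjusted p = 0.378) but it was -0.033 without SCN replicate 2. Within run 1 the difference was 0.08 and within run 3 it was 2.47. The largest negative differences after ecdysoneless were those of a Krueppel C2H2 zinc finger (Contig6117, log2 -0.75, limma adjusted p = 0.55) and brain specific homeobox protein (Contig21379, log2 -0.49, limma adjusted p = 0.58). Contig6117 had 83.0 RPKM in SD replicate 3 and 106 in SCN replicate 2 against 17.4 to 38.2 in the other 7 libraries.

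**Figure D4:**
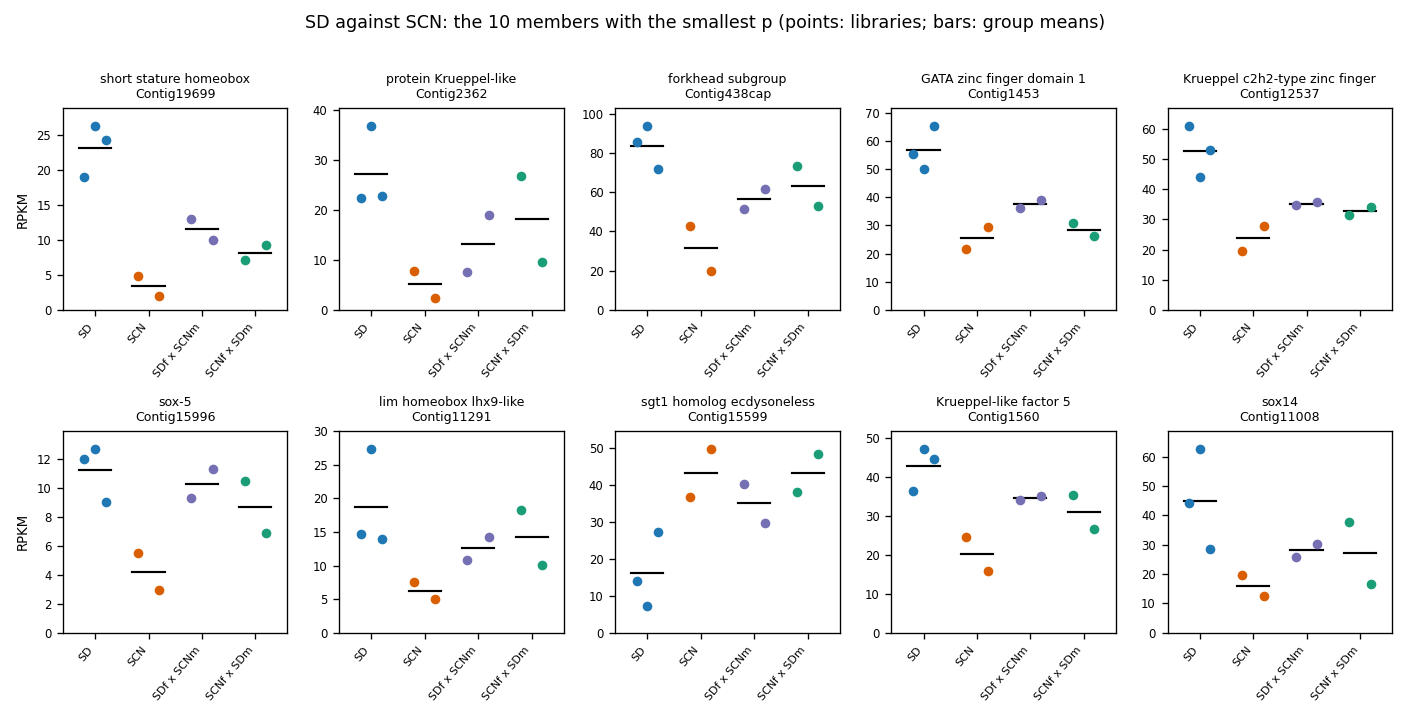
RPKM (linear axes from 0) of the 10 members with the smallest p for SD against SCN; points are libraries and bars group means. In 9 of the panels the 3 SD libraries lie above both SCN libraries, and in the panel of ecdysoneless they lie below; short stature homeobox alone passed the adjusted threshold.

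SD and SCN did not overlap in 26 members (20.2%), compared with 29.0% of all features. In 24 of the 26 SD was higher, a direction found in 19.8% of all features, and in 2 it was lower, found in 9.17%. The log2 difference was above 0 in 99 members (76.7%), compared with 62.5% of all features, with a median of 0.37 compared with 0.23. Relative to all features the member median was thus 0.14. After quantile normalization 79 members lay above 0 (61.2%, compared with 52.0%), and after median-of-ratios scaling 80 did (62.0%, compared with 48.6%). Within run 1 the member median was -0.0048 beside 0.02 for all features, with 64 of 129 above 0. Within run 3 it was 0.64 beside 0.46, with 105 above 0, and 64 members had the same sign in both runs. Without SCN replicate 2 the member median was -0.09, beside -0.03 for all features.

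By family, all 8 forkhead contigs lay above 0 (median log2 0.81) and 11 of 12 Sox contigs did (0.81). These counts were the same under quantile and median-of-ratios scaling, but without SCN replicate 2 they were 4 of 8 (median 0.24) and 7 of 12 (0.12). Of the homeobox and homeotic contigs 36 of 46 lay above 0 (median 0.33) and of the GATA contigs 5 of 8 (0.64), falling to 28 and 4 under quantile normalization. The nuclear receptors had 15 of 20 above 0 (median 0.23, that of all features), and their median turned to -0.06 under quantile normalization and -0.02 under median-of-ratios scaling. T-box contigs had a median of -0.07 and paired box contigs 0.09, and the latter turned to -0.16 under both scalings. Apart from short stature homeobox, 0 members of any family passed.

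The library left out decided the count. Without SCN replicate 1, which leaves a lone SCN library assumed to vary like the other groups, limma called 28 members (21.7%), compared with 22.4% of all features. In that fit the log2 difference was above 0 in 114 of 129 members (88.4%), compared with 66.8% of all features. The median was 0.92, compared with 0.51.

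Hybrids were compared with the midparent, halfway between the parental group means on the log2(RPKM + 1) scale, to ask whether hybrids lie off the parental mean. No member passed by limma, compared with 0.8% of all features (110 of 13758) and 0.792% above the midparent. An unadjusted p under 0.05 was found in 20 members (15.5%), compared with 16.5% of all features, and 18 of the 20 were above the midparent. At any p, 62.1% of all features lay above it. With voom, a count-based form of limma run on the recovered reads, 0 members passed, beside 148 of all features. In 17 members the unadjusted p of voom was under 0.05, a count not taken over all features.

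The smallest p was that of Krueppel-like factor 5-like (Contig26282). It had 5.07, 3.74 and 3.25 RPKM in SD, 5.70 and 3.19 in SCN, 12.4 and 9.73 in SDf x SCNm and 13.0 and 9.62 in SCNf x SDm. All 4 hybrid libraries lay above all 5 parental ones (log2 1.24, SE 0.29, limma adjusted p = 0.0806). Homeobox protein h17 (Contig24045) had 6.55, 9.49 and 3.51 in SD, 7.59 and 3.59 in SCN, 14.2 and 18.0 in SDf x SCNm and 14.8 and 18.2 in SCNf x SDm (log2 1.37, SE 0.34, limma adjusted p = 0.0924), again without overlap.

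A sox14 contig (Contig90708) had 4.96, 2.31 and 3.12 RPKM in SD, 3.71 and 1.98 in SCN, 6.26 and 7.72 in SDf x SCNm and 11.4 and 8.74 in SCNf x SDm (log2 1.22, SE 0.30, limma adjusted p = 0.0939). A homeobox contig (Contig24200) had 15.0, 16.0 and 9.29 in SD, 10.7 and 6.39 in SCN, 21.9 and 22.4 in SDf x SCNm and 24.7 and 26.8 in SCNf x SDm (log2 1.12, SE 0.28, limma adjusted p = 0.0950). The latter rests on very few reads, namely 13, 5 and 0 in SD, 1 and 0 in SCN, against 8 to 30 per hybrid library. The deposited values hold a constant equal to 1.12 to 18.4 reads, depending on the library. In Contig24200 the constant exceeds the reads in each parental library, and the reads exceed the constant in each hybrid library. With the constant taken off its difference was log2 2.62 (limma adjusted p = 0.134), and with voom it was 1.88 (adjusted p = 0.0773).

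The largest difference was that of Krueppel-like factor 11 (Contig8cap), which was also among the most abundant members. It had 72.2, 88.0 and 33.4 RPKM in SD, 63.7 and 34.8 in SCN, 95.1 and 251 in SDf x SCNm and 141 and 134 in SCNf x SDm, on 48 to 5660 reads. Every hybrid library lay above every parental one, and SDf x SCNm replicate 2 was the highest (log2 1.44, SE 0.39, limma adjusted p = 0.122). T-box factor tbx20-like (Contig43874), named for a heart factor of vertebrates, had 4.25, 5.84 and 3.45 in SD, 6.89 and 3.12 in SCN, 17.3 and 11.3 in SDf x SCNm and 15.0 and 8.17 in SCNf x SDm (log2 1.28, SE 0.33, limma adjusted p = 0.106).

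The remaining members among the 10 smallest p-values were unc-4 (Contig24805, log2 1.19), which specifies motor neuron connections in Caenorhabditis elegans, sox-14-like (Contig27328, 1.11), Krueppel-like factor 2 (Contig24056, 0.98) and Krueppel-like factor 3-like (Contig29545, 1.23), with limma adjusted p from 0.123 to 0.170. Of the 10, 4 were Krueppel-like factors, and Krueppel contigs make up 14 of the 129 members. The median log2 of these 14 was 0.35, beside 0.34 for all members. The largest differences below the midparent were those of Contig6117 (log2 -0.98), pax-2-b (Contig36395, -0.71) and forkhead box protein K2 Contig3623 (-0.66), with limma adjusted p of 0.32, 0.28 and 0.30. Pax-2-b had 9.89, 6.57 and 9.67 RPKM in SD, 10.9 and 7.72 in SCN, 3.25 and 4.76 in SDf x SCNm and 8.59 and 4.66 in SCNf x SDm. Without both run 3 libraries, the difference of Contig6117 was -0.34 and that of Krueppel-like factor 3-like 0.64.

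**Figure D5:**
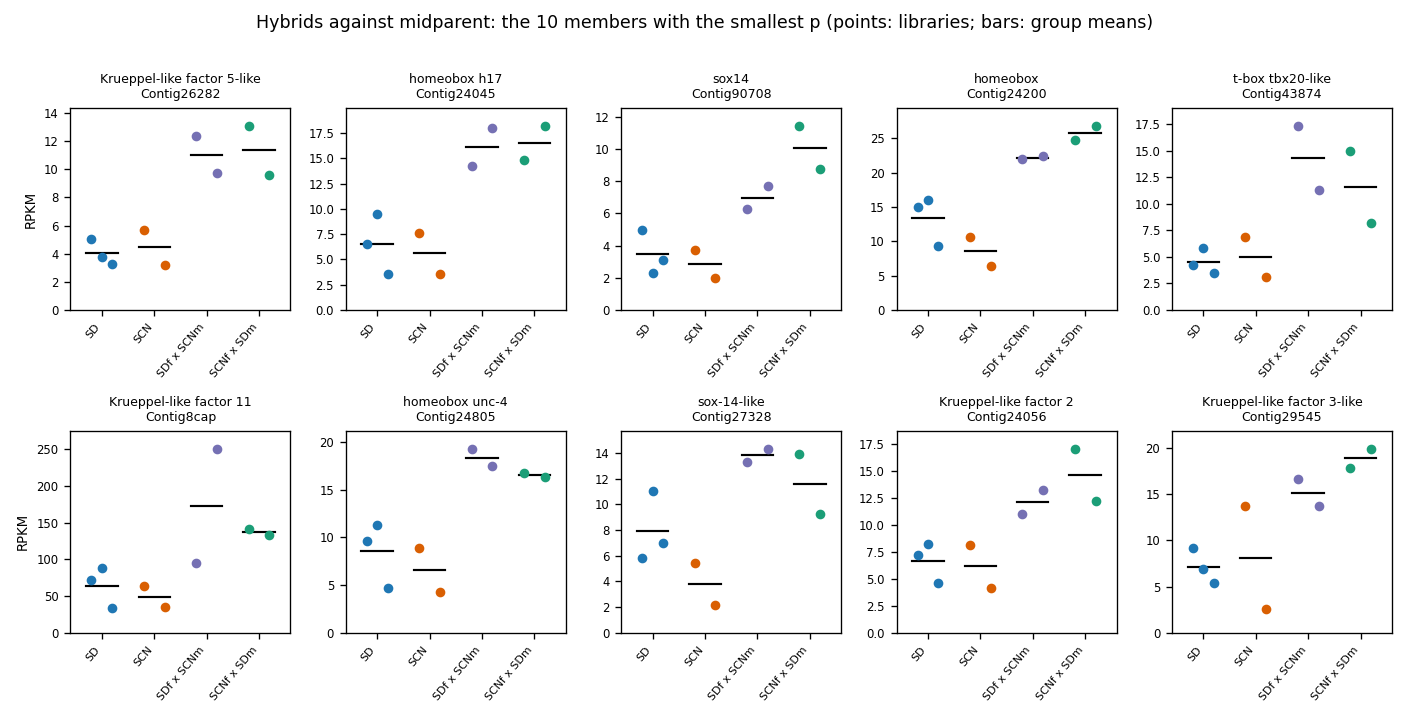
RPKM (linear axes from 0) of the 10 members with the smallest p for hybrids against the midparent; points are libraries and bars group means. All 10 have higher means in both crosses than in either parent, and none passed the adjusted threshold.

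The ranges of hybrids and parents were apart in 12 members (9.30%), compared with 7.36% of all features, and all 12 were higher in hybrids, a direction found in 5.86% of all features. Of these 12, 6 were homeobox, 3 Krueppel, 2 Sox and 1 T-box contigs. The log2 difference was above 0 in 101 members (78.3%), compared with 62.1% of all features, with a median of 0.34 compared with 0.15. Under quantile normalization 74 lay above 0 (57.4%, compared with 44.0%) with a median of 0.05 beside -0.07, and under median-of-ratios scaling 91 did (70.5%, compared with 50.1%). Without both run 3 libraries 70 of 129 lay above 0, with a median of 0.03 beside 0.02. Cuticle and chitin contigs, markers of moulting stages, moved the same way, with 81 of 87 above 0 and a median of 1.06, and their part in the member values was not tested.

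All 12 Sox contigs lay above the midparent (median log2 0.56), 10 of them after quantile normalization and 9 without SCN replicate 2. Without both run 3 libraries 7 of the 12 did, with a median of 0.083 beside 0.016 for all features. Homeobox and homeotic contigs had 38 of 46 above 0 (median 0.38) and Krueppel contigs 11 of 14 (0.35), and under quantile normalization these were 27 (0.05) and 9 (0.03). The nuclear receptors had 11 of 20 above 0 (median 0.12), and their median was -0.21 and -0.04 under the respective scalings. Forkhead contigs had 6 of 8 above 0 (0.32), and 3 of 8 without SCN replicate 2 (-0.11). Without SCN replicate 1, 109 members lay above the midparent (84.5%), compared with 66.4% of all features.

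By their titles, the reciprocal crosses carry mixed nuclear genomes on the mitochondria of different mothers, and they were compared with each other. No member and no feature of the table passed by limma (0.0% called), and an unadjusted p under 0.05 was found in 0 members, compared with 0.283% of all features (39). That share is far below 0.05, the part that p-values would reach with no difference anywhere. The spread in this fit is shared with the parental libraries, so the lack of calls does not show that the crosses are alike. Voom also called 0 features, with 1 member at an unadjusted p under 0.05, a count not taken over all features. The member median was 0.00 beside 0.05 for all features, and 65 members were higher in SDf x SCNm (50.4%, compared with 56.7% of all features) and 64 in SCNf x SDm. The crosses did not overlap in 31 members (24.0%), compared with 28.7% of all features.

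The largest positive difference was that of kayak, which with Jun forms the AP-1 dimer. It had 101 and 98.0 RPKM in SDf x SCNm and 64.5 and 45.9 in SCNf x SDm (log2 0.86, SE 0.39), beside 89.9, 117 and 72.1 in SD and 62.8 and 40.7 in SCN. Both SDf x SCNm libraries lay above both SCNf x SDm libraries. The largest negative difference was that of the hairy enhancer-of-split related contig with a YRPW motif (Contig3612), of a family that Notch signalling induces. It had 28.3 and 34.7 RPKM in SDf x SCNm and 87.4 and 47.5 in SCNf x SDm (log2 -1.02, SE 0.58), beside 59.1, 54.6 and 27.0 in SD and 35.3 and 11.6 in SCN, so that both SDf x SCNm libraries lay below both SCNf x SDm libraries.

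Next came a sox- contig (Contig8442, log2 0.72), pax-3 (Contig25233, 0.57), short stature homeobox (0.44), an aristaless-like contig (Contig24156, 0.43) and GATA zinc finger domain-containing protein 1-like (0.40) on the side of SDf x SCNm. Krueppel-like factor 1 (Contig10244, -0.60), pax-2-b (-0.57) and sox14 Contig90708 (-0.47) lay on the other side. For all 10 named here the limma adjusted p was 1.00.

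Body-plan genes could also be followed library by library. The Distal-less contig (homeotic protein distal-, Contig31993), a limb gene in arthropods, had 14.0, 10.2 and 12.8 RPKM in SD, 16.3 and 3.16 in SCN, 10.8 and 8.68 in SDf x SCNm and 13.4 and 6.46 in SCNf x SDm. A Hox contig (homeobox protein hox-, Contig2699) had 8.66, 15.7 and 4.95 in SD, 8.75 and 5.82 in SCN, 7.12 and 13.4 in SDf x SCNm and 15.1 and 10.3 in SCNf x SDm. The groups overlapped in both genes, and neither passed in any of the 3 comparisons (limma adjusted p of 0.58 or more).

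Related genes outside these families were counted from lists of protein names. Such lists can hold stray matches. That of other transcription factor families includes a serine-rich adhesin for platelets-like contig (Contig16104). In all 3 comparisons limma called 0 of 19 moulting and juvenile hormone genes, 0 of 29 transcriptional co-regulators, 0 of 108 contigs of other transcription factor families, 0 of 40 genes of developmental signalling and 0 of 42 Polycomb and trithorax chromatin genes. Among co-regulators, which factors recruit to reach RNA polymerase, the smallest p for SD against SCN was that of mediator subunit 15-like (Contig14054), with 36.7, 40.6 and 38.2 RPKM in SD and 16.1 and 12.0 in SCN (log2 1.41, SE 0.32, limma adjusted p = 0.0901). In the moulting and juvenile hormone list the smallest p for hybrids was that of a juvenile hormone-inducible contig (Contig12559), with 64.2 to 85.0 RPKM in the 4 hybrid libraries and 16.1 to 53.2 in the 5 parental ones (log2 1.20, SE 0.29, limma adjusted p = 0.0852).

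The median log2 difference of the co-regulators was 0.71 between SD and SCN, with 26 of 29 above 0, and 0.01 for hybrids against the midparent. For the other transcription factor families it was 0.52, with 87 of 108 above 0, and 0.16. For developmental signalling it was 0.35 and 0.17, beside 0.37 and 0.34 for the members and 0.23 and 0.15 for all features. Among the markers of stage, sex and tissue, limma called 10 of 87 cuticle and chitin contigs above the midparent in hybrids. It also called 1 of 59 sperm and cilia contigs there, compared with 0.792% of all features. Of the yolk, muscle and nervous system contigs it called 0 of 9, 0 of 67 and 0 of 135. Without SD replicate 1 limma called 0 of all features for hybrids, so none of these calls held. In the main fit the called cuticle contigs rose by log2 1.95 to 3.26. They were led by obstructor isoform a (Contig19526), with 8.14 to 61.1 RPKM in the parental libraries and 174 to 404 in the hybrids (log2 3.26, SE 0.50, limma adjusted p = 0.0237). The cilia gene was intraflagellar transport protein 122-like (Contig14540), with 2.69 to 15.6 RPKM in the parents and 24.1 to 69.2 in the hybrids (log2 2.43, SE 0.35, limma adjusted p = 0.0237). In the other comparisons 0 of these markers passed. The nervous system list was made from parts of names and includes a synaptonemal complex contig (Contig4930), so not all its contigs are nervous system genes.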

How the data were processed

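Deposited values were RPKM per contig, per the file headers, made by the authors in 1 table for each of 9 libraries. The aligner, the counter and the assembly used were not given in the sources used here, nor was which population's contigs reads of SCN were mapped to. All tables list the same 13758 features by the SD contig identifier, printed here without its prefix, and names are printed as deposited, some cut short. Other per-sample columns numbered 0. RPKM values were whole reads plus a constant: within 0.05 read, 99.97% of values came out whole (129 of 129 members).

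Differences were tested on log2(RPKM + 1) with no filter in limma 3.58.1 (R 4.3.3, with Python 3.11.15 for tables) with a mean-variance trend, 4 group means over all 9 libraries and Benjamini-Hochberg adjustment over all 13758 features at a threshold of 0.05. RPKM are not counts, so depth does not enter the weights. The script was tested on simulated data. Contigs were named where they passed, were among the 10 smallest p-values or the 3 largest rises or falls of a comparison, were among the 10 highest levels, or carried a name fixed in the rule (ecdysone receptor, retinoid X receptor, ecdysone-induced, FTZ-F1, short stature homeobox, homeotic, kayak, Krueppel homolog, hairy; no contig was named forkhead box O). Other nuclear receptors and the contigs of the replicate ratios were named after their values were seen. The members and lists were chosen with earlier results of these data known. Alternatives were a pseudocount of 5, a minimum mean of 5 RPKM, quantile and median-of-ratios scaling, no trend, each library left out, both run 3 libraries left out, a replicate block and runs 1 and 3 with run as a term. The constant taken off, voom on recovered reads and a crossed block were added after seeing the data. Of the 129 contigs 0 matched the RefSeq gene table at hand, and no sequence is printed.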

Additional observations from a re-analysis of the deposited data

Results flagged for a closer look

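In each of the 45 named members, the 4 hybrid libraries were searched for a library far from the others, with the gap to its nearest neighbour divided by the whole range and set against Dixon's critical value of 0.83. Chance alone gives about 1 such library in 20 groups of 4 libraries that vary alike. These 4 libraries were 2 from each cross, so that rate need not hold here. In 4 members a library stood apart. SCNf x SDm replicate 2 was the lowest in Krueppel-like factor 5 (Contig1560), with 26.6 RPKM beside 34.2 to 35.3 and a ratio of 0.885. SCNf x SDm replicate 1 was the lowest in brain specific homeobox protein (Contig21379), with 15.1 RPKM beside 27.5 to 29.3 and a ratio of 0.904. SCNf x SDm replicate 2 was the lowest in sox-14-like (Contig27328), with 9.27 RPKM beside 13.3 to 14.3 and a ratio of 0.832. SDf x SCNm replicate 1 was the highest in the Krueppel C2H2 zinc finger Contig6117, with 32.7 RPKM beside 21.2 to 22.5 and a ratio of 0.861.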

How the results depend on the processing

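Short stature homeobox was lost, leaving 0 members called between SD and SCN, with the constant taken off, with voom, without both run 3 libraries and with the replicate block. Leaving out 1 library at a time gave 0 to 28 called members and a median log2 of -0.091 to 0.92 between SD and SCN, and 0 to 27 called members for hybrids, with the upper ends without SCN replicate 1. The lone library of a group is then assumed to vary like the other groups. With 1 library left out, the SD against SCN difference of E75 (Contig1338cap) ranged from -0.033 without SCN replicate 2 to 3.03 without SCN replicate 1, and that of Contig21379 from -1.10 without SCN replicate 2 to 0.12 without SCN replicate 1; the cause was not tested. Over all features the count between SD and SCN was 59, beside 95 with quantile scaling, 40 without the trend, 10 with the block, 157 with run as a term, 29 with voom and 11 to 3085 with 1 library left out. For hybrids it was 110, beside 193 with a pseudocount of 5, 170 with quantile scaling, 55 with the block, 27 with the constant taken off and 0 to 2985 with 1 library left out. With voom the count for hybrids was 148. Between the crosses the count was 0 in every alternative run.

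The replicate numbers did not pair the samples: libraries with the same number deviated together or apart, with a correlation of -0.55 between the crosses and 0.23 between SD replicate 1 and SCN replicate 1. With the replicate block 0 members were called in each of the 3 comparisons, and with the numbers of the crosses exchanged, a pairing chosen after seeing the data, 0 were called between the crosses. Among named members, 12 alternatives for SD against SCN lost a call, all of them for short stature homeobox, 6 gained 1 and 227 changed neither. For hybrids 11 gained 1, all without SCN replicate 1, and 223 changed neither, and for the crosses all 180 changed neither. A further 2 alternatives for SD against SCN reversed the sign, those of E75 without SCN replicate 2 and of Contig21379 without SCN replicate 1. Reads limit the scarce members most: in SD replicate 3 and SCN replicate 2 the median member had 5 reads.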
